A study of Mus musculus with 20 samples.

Results

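Expression of 10 genes of osteoblasts and bone mineralisation was followed in single mouse limbs: Sp7, Runx2, Ibsp, Spp1, Alpl, Smpd3, Phex, Panx3, Ostn and Mmp13. They were chosen by name, and each gene was read from its brightest probe set, by the mean of the 20 arrays. Of these 10 genes, 8 had a probe set and were measured, among 19936 genes tested. Spp1 (osteopontin) and Runx2 were not analysed here, because the gene table pairs neither name with a single-gene probe set. Every measured member had 1 probe set.

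The limbs came from embryos of the 129Sv strain at embryonic day 13.5, and each array held the RNA of 1 whole limb. The 20 arrays formed 4 groups of 5: forelimbs and hindlimbs of wild-type embryos, and forelimbs and hindlimbs of Lmx1b -/- embryos, which carry a loss-of-function allele of Lmx1b on both chromosomes. No treatment, transgene or Cre driver is given for any group. Replicates are numbered 1 to 5 for the forelimbs and 6 to 10 for the hindlimbs of each genotype. Lmx1b encodes a LIM-homeodomain transcription factor of the dorsal limb mesenchyme, and the series asks which limb genes depend on it. Whether any limbs were taken from 1 embryo is not stated. The p-values therefore measure only the spread between these arrays, which may be partly technical.

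The groups matched their labels on the genes that define them. Lmx1b itself averaged 6.30 ± 0.127 (SD, n = 5) on the log2 scale in wild-type forelimbs and 5.72 ± 0.0785 in knockout forelimbs, and 6.45 ± 0.0826 and 5.92 ± 0.114 in the hindlimbs. It fell over both limb types, with a log2 difference of -0.55 (limma, SE 0.0487, adjusted p = 2.63e-07). Where this probe set lies relative to the deleted part of the gene is not given, so it checks the labels only as far as the signal falls. Tbx5, the forelimb factor, averaged 8.50 and 8.75 in the forelimb groups against 4.73 and 4.68 in the hindlimb groups. Pitx1, the hindlimb factor, averaged 5.40 and 5.52 in forelimbs against 8.49 and 8.43 in hindlimbs. Array medians of the intensity lay between 28.6 and 31.8. Y-linked genes marked 13 arrays as male and 7 as female. All 5 wild-type forelimbs were male, against 2 of 5 knockout forelimbs and 3 of 5 in each hindlimb group.

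Long bones of the limb form on a cartilage template. Mesenchymal cells around the template become osteoblasts under the transcription factors Runx2 and Sp7, with Runx2 acting upstream of Sp7. Osteoblasts lay down a collagen matrix and then mineralise it: acidic matrix proteins bind the mineral, phosphatases remove the pyrophosphate that blocks crystal growth, and other enzymes set the local supply of phosphate. The forelimb develops ahead of the hindlimb in the mouse embryo. Because whole limbs were measured, fewer cells of a type and less RNA per cell cannot be told apart in any value that follows.

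Promoter windows were available for 4 of the measured members, taken from RefSeq on GRCm38.p6. Each window holds 250 bases before and 50 bases after the annotated gene start. They are shown because no other measured member had a window. Of these 4 genes, Ibsp and Alpl fell together in knockout forelimbs, Phex followed limb type, and Mmp13 passed the threshold in no comparison. The windows lie at chr5:104299037-104299336 on the plus strand for Ibsp, chr4:137796335-137796634 on the minus strand for Alpl, chrX:157415237-157415536 on the minus strand for Phex and chr9:7272264-7272563 on the plus strand for Mmp13. Capitals mark matches, on either strand, to TGTGGT (the RUNX core), TAATTA (a homeodomain core, which reads the same on both strands), TATAAA (the TATA box) and GGGCGG (the GC box).
Ibsp: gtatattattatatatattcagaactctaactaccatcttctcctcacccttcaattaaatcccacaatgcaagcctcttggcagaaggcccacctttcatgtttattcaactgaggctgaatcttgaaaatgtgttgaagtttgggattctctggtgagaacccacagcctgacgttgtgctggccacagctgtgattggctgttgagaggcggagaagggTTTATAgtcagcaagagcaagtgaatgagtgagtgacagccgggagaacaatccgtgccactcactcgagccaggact
Alpl: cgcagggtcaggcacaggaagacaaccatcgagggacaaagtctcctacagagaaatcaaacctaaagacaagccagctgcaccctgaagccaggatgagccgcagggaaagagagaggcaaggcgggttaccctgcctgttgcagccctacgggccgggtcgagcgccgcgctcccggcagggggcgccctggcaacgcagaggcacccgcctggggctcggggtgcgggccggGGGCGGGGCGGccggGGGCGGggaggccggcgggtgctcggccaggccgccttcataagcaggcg
Phex: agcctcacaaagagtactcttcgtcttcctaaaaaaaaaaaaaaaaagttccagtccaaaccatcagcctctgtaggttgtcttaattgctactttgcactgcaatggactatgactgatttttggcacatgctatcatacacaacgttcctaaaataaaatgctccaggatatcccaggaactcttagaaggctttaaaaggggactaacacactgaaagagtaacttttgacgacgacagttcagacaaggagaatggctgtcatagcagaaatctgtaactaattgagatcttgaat
Mmp13: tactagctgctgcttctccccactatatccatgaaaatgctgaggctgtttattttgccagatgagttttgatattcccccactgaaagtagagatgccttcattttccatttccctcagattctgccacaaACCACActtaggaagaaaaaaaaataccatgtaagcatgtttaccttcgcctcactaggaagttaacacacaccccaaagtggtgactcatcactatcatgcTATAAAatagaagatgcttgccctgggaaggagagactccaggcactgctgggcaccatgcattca
In the Ibsp window the TATA letters stood on the reverse strand, with their first base at -28 from the start. The Alpl window held GC boxes at -15, -10 and 0, and the matches at -15 and -10 overlap. A second annotated Alpl start had a TATA match on the reverse strand at -192 and is not shown. The Mmp13 window held a RUNX match on the reverse strand at -118 and TATA letters at -16, and the Phex window held none of the 4 motifs. Of 32851 windows of this length in the table, 16.8% held TGTGGT, 5.29% held TAATTA, 13.6% held TATAAA and 35.7% held GGGCGG.

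Most of the measured members shared 1 pattern. Sp7, Ibsp, Alpl, Smpd3, Panx3 and Ostn had their highest mean in wild-type forelimbs, and lower means in knockout forelimbs, wild-type hindlimbs and knockout hindlimbs. Phex was high in forelimbs and low in hindlimbs whatever the genotype, and the Mmp13 arrays of all 4 groups overlapped. In forelimbs, 6 of 8 members fell in the knockouts at an adjusted p under 0.05 in limma, and none rose. Of all genes tested, 1.27% were called in this comparison in either direction and 1.03% were called as lower. The median difference over the 8 members was -0.59 on the log2 scale, against 0.00 over all 19936 genes. The arrays of both forelimb groups were fully apart, with the knockouts lower, for Ibsp, Sp7, Ostn, Panx3 and Smpd3 and for 1.72% of all genes.

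**Figure D1:**
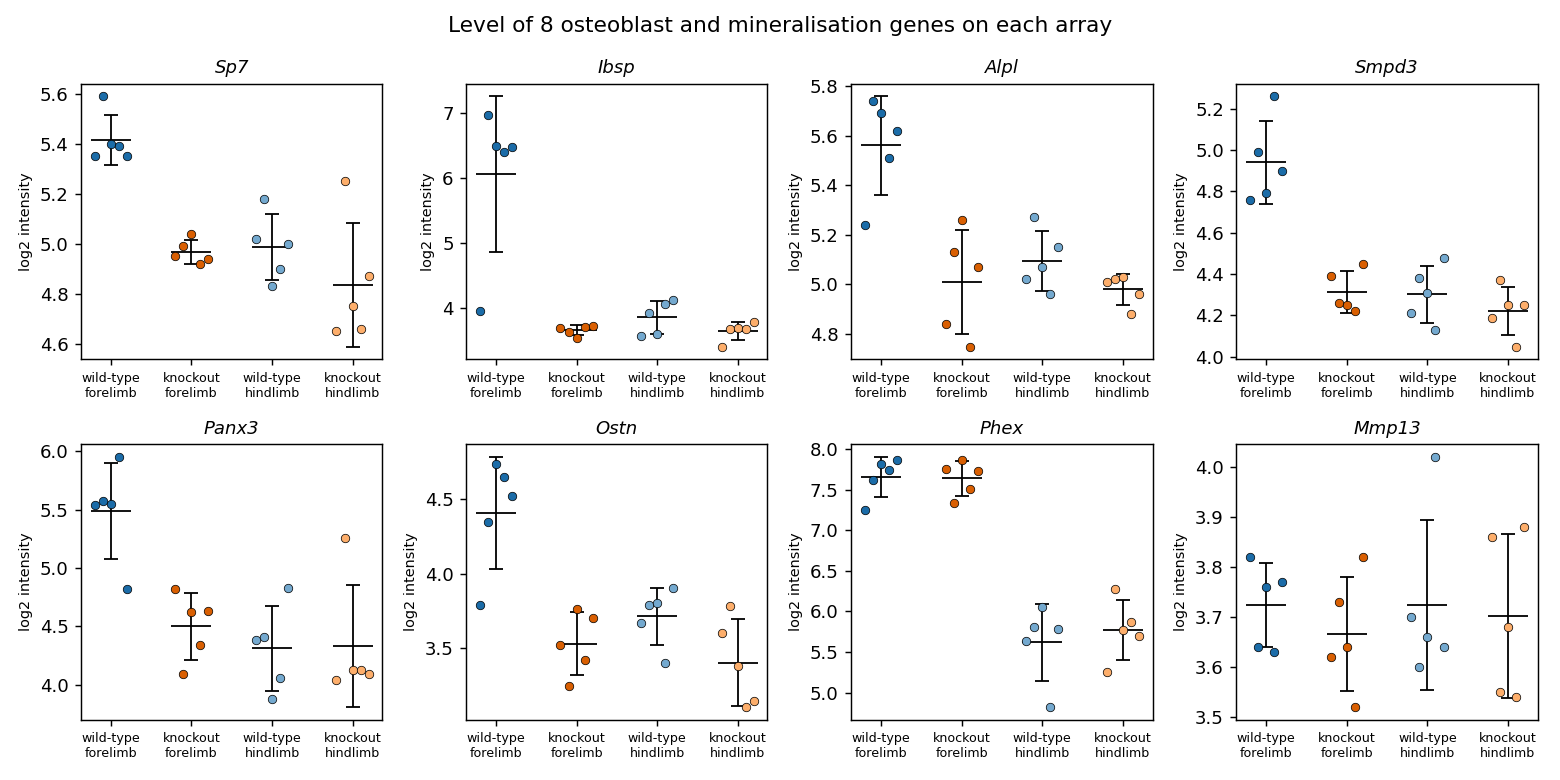
Log2 intensity (vertical axis) of the 8 measured members on each of the 20 arrays, grouped by genotype and limb type, with points for arrays and bars for group means and SDs (n = 5). For Ibsp, 4 wild-type forelimb arrays sit between 6.40 and 6.96, while the remaining wild-type forelimb array, at 3.94, lies among the other groups; Phex separates the limb types in both genotypes.

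Sp7 encodes osterix, the zinc-finger transcription factor without which no osteoblasts form. Its log2 intensity in wild-type forelimbs was 5.35, 5.59, 5.40, 5.39 and 5.35 in replicates 1 to 5. In knockout forelimbs it was 4.95, 4.99, 5.04, 4.92 and 4.94. The groups did not overlap, and the knockout arrays lay within a narrow band. Wild-type hindlimbs gave 5.02, 5.18, 4.83, 4.90 and 5.0 in replicates 6 to 10. Knockout hindlimbs gave 4.65, 5.25, 4.75, 4.66 and 4.87. In the hindlimb, 3 of 5 knockout arrays lay below the wild-type range, 1 within it and 1, replicate 7, above it. In forelimbs Sp7 fell in the knockouts, with a log2 difference of -0.45 (SE 0.0916, 95% interval -0.64 to -0.26, limma adjusted p = 0.0131), a 1.37-fold fall. In hindlimbs the difference was -0.15 (95% interval -0.34 to 0.04, adjusted p = 0.946). Leaving out each array in turn gave hindlimb differences from -0.25 to -0.10, none of them called.

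Ibsp encodes bone sialoprotein, an acidic glycoprotein of mineralising matrix that binds hydroxyapatite, and it changed by the largest fold of the 8 members. Wild-type forelimbs gave 3.94, 6.96, 6.49, 6.40 and 6.47. Knockout forelimbs gave 3.69, 3.63, 3.53, 3.70 and 3.72. No knockout array reached the wild-type range, but wild-type replicate 1 stood only just above them. Wild-type hindlimbs gave 3.56, 3.92, 3.59, 4.06 and 4.11. Knockout hindlimbs gave 3.40, 3.67, 3.69, 3.67 and 3.78. The hindlimb groups overlapped at the level of the knockout forelimbs. All of these arrays lay below the array medians (4.84 to 4.99), so a further fall in hindlimbs could have been missed. The group means were 6.05 ± 1.2 in wild-type forelimbs and 3.65 ± 0.0751 in knockout forelimbs (SD, n = 5), a difference of -2.40 (SE 0.341, 95% interval -3.11 to -1.69, limma adjusted p = 0.000351) or 5.27-fold. Leaving out each array in turn kept this call and gave differences from -2.93 to -2.17. In hindlimbs the difference was -0.21 (95% interval -0.92 to 0.50, adjusted p = 0.99).

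Ibsp lies in a cluster of genes for acidic phosphoproteins of bone and teeth, and 3 of its 4 nearest measured neighbours belong to it. Dmp1, a matrix protein of osteocytes and dentine, averaged 3.98 in wild-type and 3.72 in knockout forelimbs (difference -0.27, adjusted p = 0.204). Mepe, another member of the family, averaged 3.01 and 2.86 (difference -0.16, adjusted p = 0.225). Dspp, which encodes dentine proteins, averaged 4.05 and 4.04, and its adjusted p was 0.991. The other neighbour, Thoc2l, differed by -0.20 (adjusted p = 0.439). None of the 4 passed the threshold. Dmp1, Mepe and Dspp lay below the array medians (4.84 to 4.99) in both forelimb groups, so a fall of these 3 could have been missed.

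Alpl and Smpd3 encode enzymes of mineralisation. Alpl is the tissue-nonspecific alkaline phosphatase, which hydrolyses pyrophosphate, and its wild-type forelimbs gave 5.24, 5.74, 5.69, 5.51 and 5.62. Knockout forelimbs gave 4.84, 5.13, 5.26, 4.75 and 5.07. Here 4 of the 5 knockout arrays lay below the wild-type range, and replicate 3 reached just above the lowest wild-type array. Wild-type hindlimbs gave 5.02, 5.27, 5.07, 4.96 and 5.15, and knockout hindlimbs 5.01, 5.02, 5.03, 4.88 and 4.96. The forelimb difference was -0.55 (SE 0.0956, 95% interval -0.75 to -0.35, limma adjusted p = 0.00311). The hindlimb difference was -0.11 (95% interval -0.31 to 0.09, adjusted p = 0.977), with overlapping groups.

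Smpd3 is a neutral sphingomyelinase, which cleaves sphingomyelin and whose loss in mice leaves bone poorly mineralised. Wild-type forelimbs gave 4.76, 4.99, 4.79, 5.26 and 4.90, and knockout forelimbs 4.39, 4.26, 4.25, 4.22 and 4.45. The groups stood clearly apart. Wild-type hindlimbs gave 4.21, 4.38, 4.31, 4.13 and 4.48, and knockout hindlimbs 4.19, 4.37, 4.25, 4.05 and 4.25. Both hindlimb groups and the knockout forelimbs covered about the same range. The forelimb difference was -0.63 (SE 0.0887, 95% interval -0.81 to -0.44, limma adjusted p = 0.000343), or 1.54-fold, and the hindlimb difference was -0.08 (95% interval -0.26 to 0.11, adjusted p = 0.988).

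Panx3 and Ostn are made by osteoblasts and by other cells. Panx3 encodes a pannexin channel of osteoblasts and maturing chondrocytes, and wild-type forelimbs gave 5.54, 5.57, 5.55, 5.95 and 4.82. Knockout forelimbs gave 4.82, 4.09, 4.62, 4.34 and 4.63. The groups met at 4.82, where the lowest wild-type array was above the highest knockout array by less than the rounding. Wild-type hindlimbs gave 4.38, 4.41, 3.88, 4.06 and 4.83, and knockout hindlimbs 4.04, 5.26, 4.13, 4.13 and 4.09. Knockout replicate 7 was higher than every other hindlimb. The forelimb difference was -0.98 (SE 0.225, 95% interval -1.45 to -0.52, limma adjusted p = 0.03), and the hindlimb difference 0.02 (95% interval -0.45 to 0.49, adjusted p = 0.996). The forelimb call for Panx3 was the least firm of the 6. It was lost when wild-type forelimb replicate 2 (adjusted p = 0.063), 3 (0.0807) or 4 (0.097), or knockout forelimb replicate 2 (0.097) or 4 (0.091), was left out.

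Ostn encodes osteocrin, a small secreted peptide of bone and muscle that binds the clearance receptor for natriuretic peptides. Wild-type forelimbs gave 3.79, 4.35, 4.74, 4.65 and 4.52, and knockout forelimbs 3.52, 3.24, 3.76, 3.42 and 3.70. The groups did not overlap, although wild-type replicate 1 was close to the highest knockout array. Wild-type hindlimbs gave 3.67, 3.79, 3.80, 3.40 and 3.90, and knockout hindlimbs 3.60, 3.78, 3.38, 3.10 and 3.14. In the hindlimb, 3 of 5 knockout arrays lay below the wild-type range. The forelimb difference was -0.88 (SE 0.157, 95% interval -1.21 to -0.56, limma adjusted p = 0.0042). The hindlimb difference was -0.31 (95% interval -0.64 to 0.01), with an adjusted p of 0.893.

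Phex and Mmp13 passed the test for genotype in neither limb type. Phex encodes a membrane-bound endopeptidase of osteoblasts and osteocytes, which is mutated in X-linked hypophosphataemia. Wild-type forelimbs gave 7.25, 7.62, 7.82, 7.74 and 7.86, and knockout forelimbs 7.76, 7.33, 7.87, 7.51 and 7.73. These groups overlapped almost completely, and the difference was -0.01 (95% interval -0.41 to 0.38, limma adjusted p = 0.982). Wild-type hindlimbs gave 5.64, 5.81, 6.06, 4.82 and 5.78, and knockout hindlimbs 5.25, 6.28, 5.77, 5.87 and 5.70. Their difference was 0.15 (95% interval -0.25 to 0.54, adjusted p = 0.99). Every forelimb array lay above every hindlimb array.

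Mmp13 encodes collagenase 3, which hypertrophic chondrocytes and osteoblasts use to remove collagen. Wild-type forelimbs gave 3.82, 3.64, 3.76, 3.63 and 3.77, and knockout forelimbs 3.62, 3.73, 3.64, 3.52 and 3.82. Wild-type hindlimbs gave 3.70, 3.60, 3.66, 4.02 and 3.64, and knockout hindlimbs 3.86, 3.55, 3.68, 3.54 and 3.88. All 4 groups overlapped, with means from 3.67 to 3.72. These lay below the array medians (4.84 to 4.99), so a fall near background could have been missed. The genotype difference was -0.06 in forelimbs (95% interval -0.23 to 0.12) and -0.02 in hindlimbs (95% interval -0.20 to 0.16).

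In hindlimbs, limma called none of the 8 members, at adjusted or at unadjusted p under 0.05. Over all genes, 0.231% were called and 5.75% had an unadjusted p under 0.05. The median difference over the members was -0.09. Ibsp, Ostn, Panx3, Smpd3 and Mmp13 averaged below the array medians (4.84 to 4.99) in both hindlimb groups, so falls there could have been missed. Over both limb types together, 5 of 8 members fell, where 2.04% of all genes were called and 1.57% were lower. The log2 difference was -1.30 for Ibsp (SE 0.241, limma adjusted p = 0.00424) and -0.60 for Ostn (SE 0.111, adjusted p = 0.0044). It was -0.35 for Smpd3 (adjusted p = 0.00316), -0.33 for Alpl (adjusted p = 0.00935) and -0.30 for Sp7 (adjusted p = 0.0149). Panx3 was at -0.48 with an adjusted p of 0.135, which became a call (-0.60, adjusted p = 0.0149) when knockout hindlimb replicate 7 was left out.

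**Figure D2:**
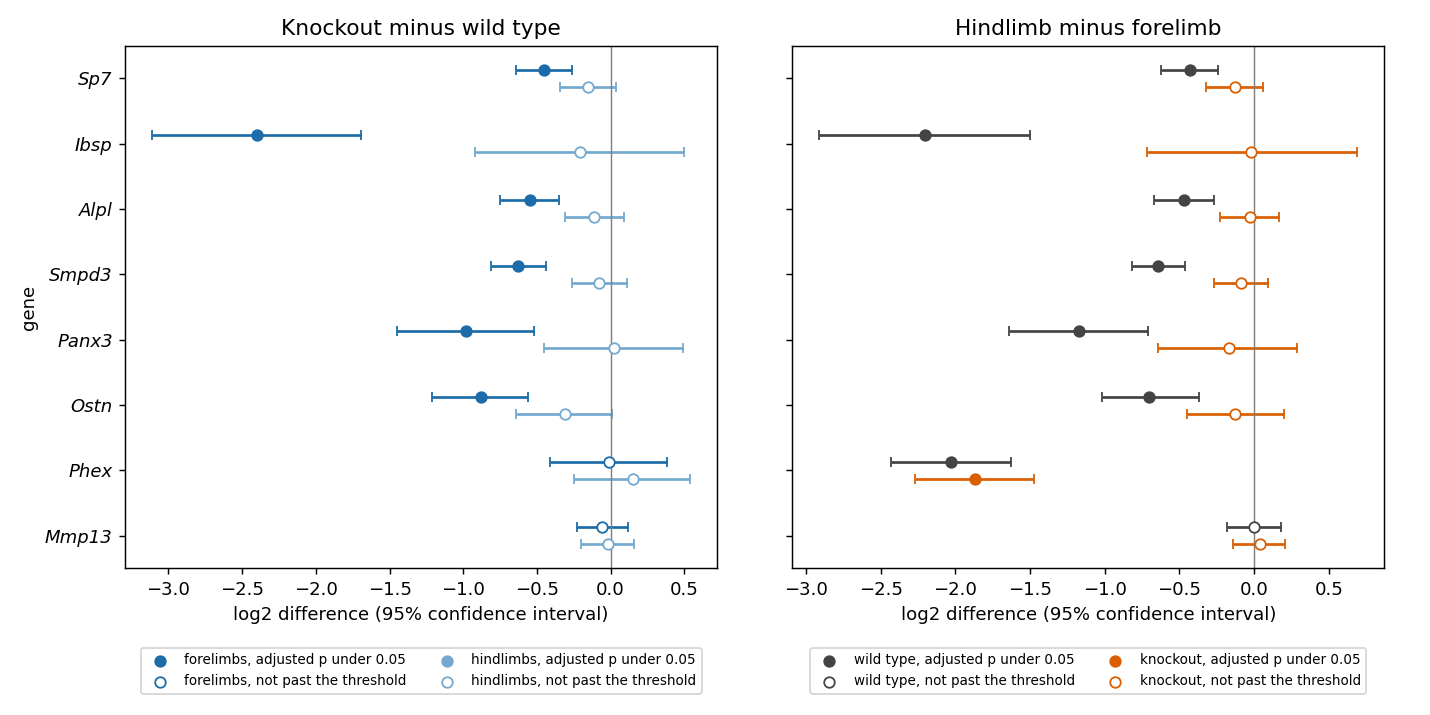
Log2 differences with 95% intervals (limma, 5 arrays per group) for the 8 measured members in the genotype and limb-type comparisons. In forelimbs the intervals of 6 members lie wholly to the left of 0, with Ibsp at -2.40, and all hindlimb intervals of the genotype effect include 0.

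The difference between the genotype effects in hindlimbs and forelimbs was tested directly, as hindlimb effect minus forelimb effect. None of the 8 members passed the threshold, where 0.0201% of all genes did. At an unadjusted p under 0.05 there were 6 of 8 members, against 3.63% of all genes. These 6 estimates share the same wild-type forelimb arrays. Ibsp had the smallest p of the members, with a difference of 2.19 (SE 0.482, 95% interval 1.19 to 3.19, adjusted p = 0.34). Without wild-type forelimb replicate 1 it was 2.72 with an adjusted p of 6.71e-09, so this 1 array decided the call. Smpd3 followed with 0.55 (SE 0.125, adjusted p = 0.422). The values were 1.00 for Panx3, 0.57 for Ostn, 0.44 for Alpl and 0.30 for Sp7, each with an adjusted p of 1.

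The limb types were then compared within each genotype. Wild-type hindlimbs were lower than wild-type forelimbs for 7 of 8 members, where 3.26% of all genes were called and 2.49% were lower. This comparison and the genotype comparison in forelimbs share the 5 wild-type forelimb arrays. The log2 difference, hindlimb minus forelimb, was -2.20 for Ibsp (SE 0.341, limma adjusted p = 0.000646), which is 4.61-fold, and -2.03 for Phex (SE 0.191, adjusted p = 1.35e-06), which is 4.09-fold. It was -1.17 for Panx3 (adjusted p = 0.00463), -0.70 for Ostn (0.0151), -0.64 for Smpd3 (0.000266), -0.47 for Alpl (0.00797) and -0.43 for Sp7 (0.0102). Mmp13 differed by 0.00 (adjusted p = 0.997). The arrays of the groups were fully apart, with the hindlimbs lower, for Sp7, Phex and Smpd3, and for 3.2% of all genes. The call for Ostn was lost without wild-type forelimb replicate 3 (adjusted p = 0.0556) or 4 (0.0525), or wild-type hindlimb replicate 9 (0.0619).

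Among the knockouts, 1 of 8 members differed between limb types, where 0.617% of all genes were called and 0.441% were lower. That member was Phex, lower in hindlimbs with a log2 difference of -1.87 (SE 0.191, 95% interval -2.27 to -1.47, limma adjusted p = 4.75e-06) or 3.65-fold. The Phex groups were apart in both genotypes, as were 0.943% of all genes, with hindlimbs lower, among the knockouts. Ibsp differed by -0.02 between knockout limb types (95% interval -0.72 to 0.69) and Panx3 by -0.17 (95% interval -0.64 to 0.29). The remaining members lay between -0.13 and 0.04. On the X chromosome beside Phex, Ptchd1 differed by 0.18 between wild-type limb types (adjusted p = 0.426). The neighbour on the other side, Smpx, a gene of striated muscle, was lower in wild-type hindlimbs (log2 difference -0.81, SE 0.155, limma adjusted p = 0.00463), and its difference was -0.38 in knockouts (adjusted p = 0.39).

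**Figure D3:**
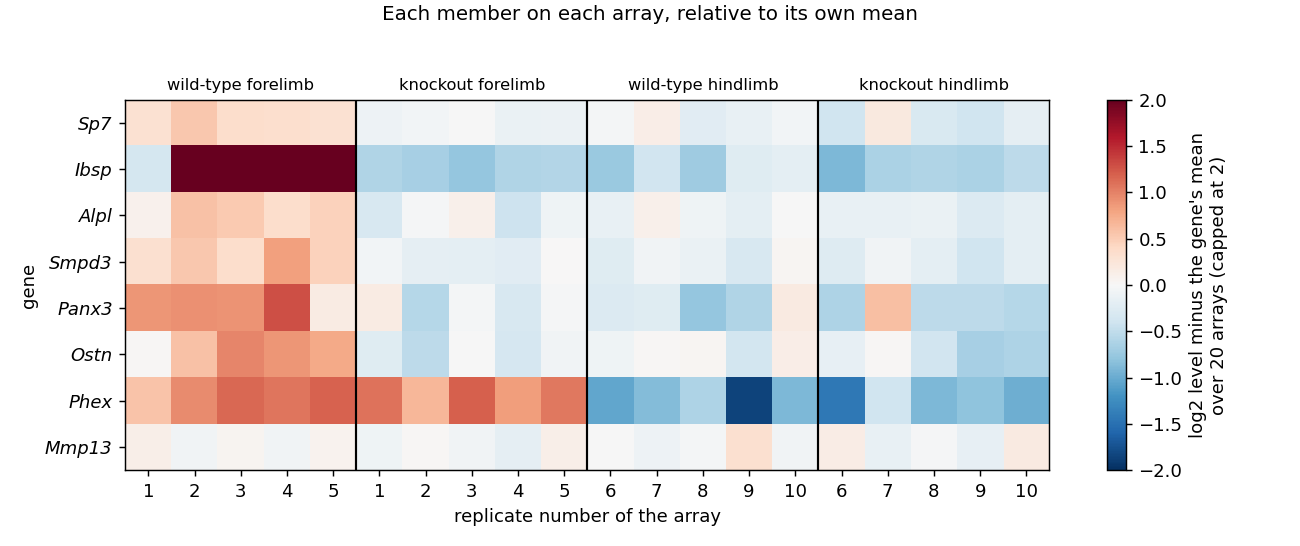
Level of each measured member on each array relative to that gene's mean over all 20 arrays (log2), with arrays ordered by group. Most wild-type forelimb arrays stand high for 6 members, but Ibsp in replicate 1 (3.94) lies below that gene's mean of 4.30. Phex is high in wild-type forelimbs too, and Phex alone stays high in the knockout forelimbs.

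Within groups, some arrays were high or low for several members at once. Wild-type forelimb replicate 1 was the lowest of its group for 6 of 8 members (Ibsp, Alpl, Sp7, Phex, Ostn and Smpd3). The same array had the lowest mean of its group over the bone matrix list (7.13), and over the tendon (6.79), endothelium (6.63), macrophage (5.36) and osteoclast (4.89) lists. Its mean over the phosphate and mineral handling list (6.63) was the lowest too. Its cartilage list mean, 6.60, was not the lowest. Knockout hindlimb replicate 7 was the highest of its group for Sp7, Phex, Ostn, Panx3 and Smpd3. It was also the highest for the bone matrix (7.10), cartilage (6.50), muscle (7.06) and tendon (6.35) lists. The same held for the endothelium (6.70), macrophage (5.29), bone transcription factor (7.29) and growth plate hypertrophy (6.79) lists. Phosphate and mineral handling (6.67) and osteoblast signals and receptors (7.13) were highest there too. For the osteoclast, erythroid and limb mesenchyme lists it was not the highest. Whether dissection, stage or RNA of these limbs differed was not tested.

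The deviations of the members from their group means were compared over the 20 arrays as a description. The points share arrays, and the limbs may share embryos. Pearson's r was 0.65 for Sp7 with Panx3, 0.61 for Phex with Ostn and 0.55 for Ibsp with Alpl, but 0.03 for Ibsp with Panx3. Mmp13 ran against Phex, with r = -0.69. The mean of the members followed the mean of the bone matrix list with r = 0.88, that of the endothelium list with 0.74, tendon with 0.73, macrophage with 0.69, muscle with 0.57 and cartilage with 0.30. Outside the members, the 10 genes with the most similar deviations to the member mean were Cldn5 (r = 0.90), a tight junction gene of endothelium, Ecrg4 (0.88), Cercam (0.87), Lacc1 (0.83), Zfp651 (0.83), Sparc (0.82), a matrix protein of bone, Tnnt3 (0.81), a troponin of fast muscle, Abca9 (0.81), Arsa (0.81) and Cavin2 (0.80). For Ibsp alone they were Radil, at r = 0.81, Kcnmb4os1, Fermt3, Ccdc154, Mir543, 4930432E11Rik, Ckm, Acap1, P2rx5 and Klk11, the last at 0.72. Spearman's rho, which uses ranks, ran for these 10 from 0.37 (Klk11) to 0.67 (4930432E11Rik), with Radil at 0.57. For Ibsp with Alpl it was 0.38. The largest deviation of Ibsp by far was that of wild-type forelimb replicate 1 (3.94, group mean 6.05), so Pearson's r for Ibsp leans on this 1 array.

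Other genes of bone were counted from lists that leave out the members. Over 24 measured bone matrix proteins the median difference in knockout forelimbs was -0.30, with 23 of 24 below 0. Of the 24, 4 were called lower there, where 1.03% of all genes were, and none was called higher. These were Dcn, a small proteoglycan (-0.86, limma adjusted p = 0.0194), Tnn, an extracellular tenascin (-0.41, adjusted p = 0.0302), Col1a2, a chain of type I collagen (-0.42, adjusted p = 0.0446) and Col5a1, a chain of type V collagen (-0.34, adjusted p = 0.0447). Each of these calls depended on single arrays: leaving out 1 of the 20 kept Dcn in 15 fits, Tnn in 14, Col5a1 in 9 and Col1a2 in 6. Over both limb types, Dcn (-0.81, adjusted p = 0.00116) and Pcolce, an enhancer of collagen processing (-0.23, adjusted p = 0.0136), fell, as did Lox and Col5a1, whose adjusted p values of 0.0374 and 0.0461 stayed under the threshold in 6 of 20 such fits each. In hindlimbs none of the 24 passed the threshold and 3 had an unadjusted p under 0.05, as did 5.75% of all genes.

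Few genes of the other bone lists were called for genotype. Over all genes, 1.27% were called in forelimbs and 2.04% over both limb types. Of 20 measured bone transcription factors, limma called none in forelimbs, 5 had an unadjusted p under 0.05, as did 13.2% of all genes, and the median difference was 0.00. Of 18 genes of phosphate and mineral handling, none was called in forelimbs, 5 had an unadjusted p under 0.05, and the median was -0.12. Of 24 osteoblast signals and receptors, 1 rose: Bmp2, a bone morphogenetic protein, was higher by 0.42 in forelimbs (SE 0.103, adjusted p = 0.0447, kept in 5 of 20 fits without 1 array) and by 0.36 over both limb types (SE 0.0729, adjusted p = 0.00877). The list of growth plate hypertrophy had 21 measured genes, among them the members Ibsp, Alpl, Sp7, Panx3 and Mmp13. Of these members, all but Mmp13 fell in forelimbs, and they were left out of the count. Of the 16 remaining genes, 1 fell in forelimbs. It was Slc26a7, an anion transporter (-0.86, adjusted p = 0.027, kept in 14 of 20 such fits). Over both limb types Scin, which encodes the actin-severing protein scinderin, fell too (-0.67, adjusted p = 0.0108).

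Of all genes, 3.26% were called between the wild-type limb types and 2.49% were lower in hindlimbs. Here 8 of 24 bone matrix proteins were lower in hindlimbs and none was higher, with a median of -0.29. Among them were Tnn (-0.54, limma adjusted p = 0.00226), Mgp, an inhibitor of calcification (-0.72, adjusted p = 0.00326), Bgn, a small proteoglycan (-0.64, adjusted p = 0.00666) and Ifitm5, an osteoblast membrane protein (-0.42, adjusted p = 0.0147). Col1a1, the main chain of type I collagen, was lower too (-0.83, adjusted p = 0.0136). Of the 16 genes of growth plate hypertrophy, 2 were lower and 1 was higher: Col10a1, the collagen of hypertrophic cartilage (-0.32, adjusted p = 0.0437), and Mef2c, which is also in the list of transcription factors, were lower, and Cd24a was higher (0.36, adjusted p = 0.0305). Of the transcription factors, Mef2c (-0.57) and Zeb2 (-0.57) were lower and Msx1 (0.64) was higher. In knockouts, no bone matrix protein differed between limb types, and 4 of 24 had an unadjusted p under 0.05, as did 9.85% of all genes.

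Markers of other limb tissues moved in the same comparisons. Over all genes, 1.27% were called in knockout forelimbs, 1.03% were called as lower there and 13.2% had an unadjusted p under 0.05. Between wild-type limb types, 2.49% of all genes were lower in hindlimbs. For genotype, 2.04% of all genes were called over both limb types and 0.231% in hindlimbs. In forelimbs, 7 of 28 muscle genes fell in the knockouts, and the mean of the list ranged from 7.34 to 7.79 in wild-type and from 6.96 to 7.33 in knockout forelimbs. Between wild-type limb types, 27 of 28 muscle genes were lower in hindlimbs, where the list mean ranged from 6.63 to 7.06. Of 15 tendon genes, 5 fell in knockout forelimbs, led by Kera (-3.09, limma adjusted p = 1.61e-11), and the list mean went from a range of 6.79 to 7.08 to one of 6.16 to 6.45. Macrophage genes fell in 2 of 12 cases, with ranges of 5.36 to 5.76 and 5.19 to 5.63, and endothelial genes in 1 of 12, with ranges of 6.63 to 6.93 and 6.48 to 6.85. Cartilage (0 of 21, with 3 at an unadjusted p under 0.05) and osteoclast genes (0 of 13, also 3) had no call, and their group ranges overlapped. The 7 erythroid genes had no call, 4 had an unadjusted p under 0.05, and their list mean ranged from 5.93 to 6.19 in wild-type and from 5.24 to 5.89 in knockout forelimbs. In forelimbs, limb mesenchyme markers went the other way: 1 of 12 rose (Hand2, 0.42, limma adjusted p = 0.0131) and none fell. Their list mean ranged from 7.35 to 7.55 in wild-type and from 7.57 to 7.74 in knockout forelimbs. Over both limb types 1 of 12 rose (Hand2, 0.31, adjusted p = 0.00644) and 1 fell (Shox2, -0.49, adjusted p = 0.00833). In hindlimbs Shox2 was the only call of this list (-0.67, adjusted p = 0.0409), and 7 of 12 lay below 0. Array intensities have no true 0, so no marker could be called absent.

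**Figure D4:**
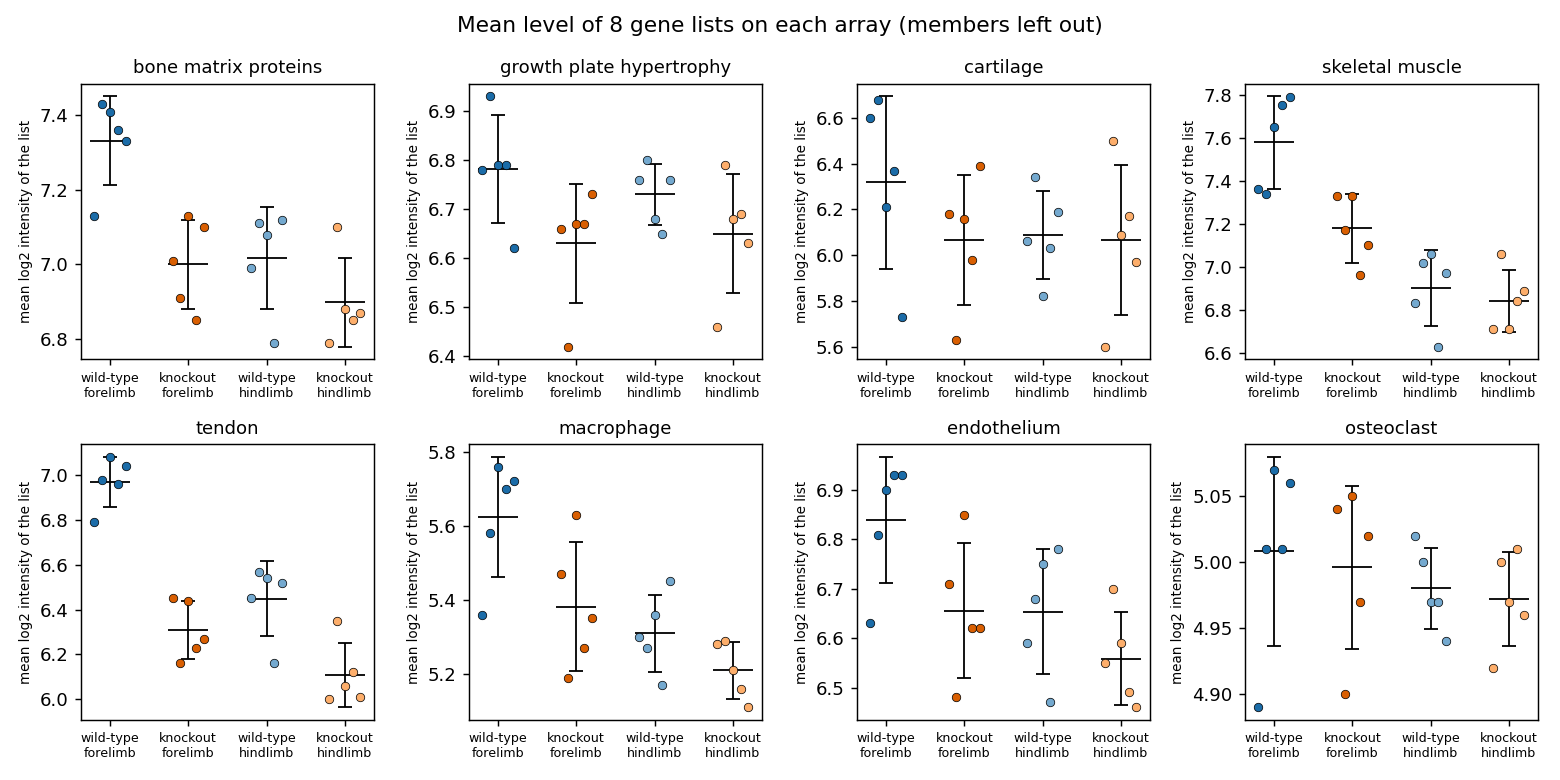
Mean log2 intensity of gene lists on every array, by group (n = 5), with the members left out. The lists are bone matrix, growth plate hypertrophy, cartilage, muscle, tendon, macrophage, endothelium and osteoclast genes. Bone matrix, muscle and tendon means are highest in wild-type forelimbs, while cartilage means of the 4 groups overlap.

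The calls for the members were repeated with sex and muscle in the fit. With the mean of the Y-linked genes as a covariate over all 20 arrays, 5 of the 6 forelimb calls stayed. Ibsp was at -2.38 (limma adjusted p = 0.00304), Alpl at -0.60 (0.00715), Smpd3 at -0.61 (0.00323), Ostn at -0.83 (0.0291) and Sp7 at -0.45 (0.0482). Panx3 was no longer called (-0.77, adjusted p = 0.165). Of the 6 genes of the other bone lists called in forelimbs, Tnn kept its call with that covariate, and Dcn, Col1a2, Col5a1, Bmp2 and Slc26a7 did not. With the 13 male arrays alone, which left 2 knockout forelimbs, no member was called in forelimbs, although Ibsp was at -2.35 (limma adjusted p = 0.145), Alpl at -0.60 (0.0725) and Smpd3 at -0.52 (0.233). The knockout forelimbs of both sexes lay below all wild-type forelimbs for Ibsp, from 3.69 to 3.72 in males and from 3.53 to 3.70 in females. With the mean of the muscle list as a covariate, no member was called in forelimbs, and Ibsp was at -2.09 (adjusted p = 0.0687), Smpd3 at -0.47 (0.113) and Alpl at -0.42 (0.341). That covariate also ended every call between wild-type limb types, Phex included (-1.02, adjusted p = 0.202), whereas Phex was still called between knockout limb types. The muscle list mean did not overlap between wild-type and knockout forelimbs, or between the wild-type limb types. This covariate is therefore hard to separate from the groups compared. The part of muscle content in these differences was not tested beyond it.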

How the data were processed

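Single limbs were measured on Affymetrix GeneChip ST arrays. The deposited values are linear intensities, 1 per probe set and array, made by the authors with RMA per the submitters' processing notes. Version, annotation and genome build remain not given in the sources used here. The log2 was taken with no pseudocount. Of 35512 probe sets, 21789 carried 1 gene symbol and were kept, 1621 with several symbols were left out, as were 12101 that the table does not list. Genes were named through RefSeq, and the probe set with the highest mean stood for a gene with several (1001 genes, none of them a member), which left 19936 genes.

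All tests came from 1 limma 3.58.1 fit (R 4.3.3; lmFit, contrasts.fit, eBayes) of 4 group means over 20 arrays, with Benjamini-Hochberg adjustment over all genes and a threshold of 0.05. The number of arrays limits the precision. The code was tested on simulated data. Alternatives covered the replicate block, side, sex, scaling, array weights, filtering, pseudocount, variance prior, muscle or cartilage covariates and leaving out each array.

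The members, gene lists and alternatives were chosen with earlier results of these data known. By rule, the text names the members, Lmx1b, up to 4 called genes per list and comparison (all of them for bone lists in genotype comparisons) and the 10 genes most like Ibsp and most like the member mean. Not every called gene that this rule allows is named. Genes beside Ibsp and Phex were chosen by position. Ifitm5 was chosen after its values were seen. The promoter sequences are those of RefSeq, GRCm38.p6, for which Sp7, Ostn, Panx3 and Smpd3 are named only.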

Additional observations from a re-analysis of the deposited data

Results flagged for a closer look

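In 4 of the 32 sets of 5 arrays (8 members in 4 groups), 1 array lay far from the other four, by a Dixon test at the 95% level. Chance flags about 1 set in 20, and over all genes 5.49% of sets were flagged, against 12.5% for the members. Ibsp in wild-type forelimb replicate 1 was at 3.94 on the log2 scale, far below the remaining wild-type forelimbs. Sp7 in wild-type forelimb replicate 2 was at 5.59, above the others. Panx3 in knockout hindlimb replicate 7 was at 5.26, and Mmp13 in wild-type hindlimb replicate 9 at 4.02, each above the rest of its group.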

How the results depend on the processing

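The members called were 5 over both limb types, 6 in forelimbs, 0 in hindlimbs, 0 for the difference of the effects, 7 between wild-type limb types and 1 between knockout limb types. With male arrays only, the counts were 0 over both limb types, 0 in forelimbs and 4 between wild-type limb types, with fewer arrays in the fit. With genes of a mean log2 of at least 5, they were 2, 2 and 3, since fewer members are then tested. With the muscle list mean as a covariate they were 0, 0 and 0, and the cause was not tested. The share of all genes called in these fits is not given here. Fewer calls across all genes therefore cannot be told from fewer calls among the members. Array weights gave 1 call for the difference (Ibsp, 2.35, adjusted p = 0.0337). Leaving out 1 array gave 5 to 6 calls over both limb types, 5 to 6 in forelimbs, 0 to 0 in hindlimbs, 0 to 1 for the difference, 6 to 7 between wild-type limb types and 1 to 1 between knockout limb types. Ibsp, Alpl, Sp7, Ostn and Smpd3 kept their forelimb calls in all 20 of these fits. Panx3 lost its forelimb call with a Y-linked covariate (adjusted p = 0.165), with all probe sets (0.0816) and with a trended, robust prior (0.0579).

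Of 2072 single-gene values under alternatives, 1838 kept their direction and side of the threshold, 181 fell short of it, 3 newly passed it and 50 changed sign. None of the 50 was past the threshold in either fit, and the largest was 0.58. For Phex in forelimbs they were 0.09 (male arrays), 0.02 (median-centred arrays), 0.58 (muscle) and 0.06 (cartilage covariate). Phex gave -0.34 for the difference with the muscle covariate. With 1 array left out Phex ran from -0.12 to 0.06 in forelimbs, -0.03 to 0.13 over both limb types, -0.05 to 0.28 in hindlimbs and -0.04 to 0.29 for the difference. Mmp13 gave 0.00 in forelimbs and -0.13 for the difference with male arrays, and 0.00 in hindlimbs with centred arrays. Between wild-type limb types Mmp13 gave -0.04 (quantile), -0.01 (weights), -0.20 (muscle) and -0.03 (cartilage). Panx3 in hindlimbs gave -0.03 with weights and -0.21 to 0.15 with 1 array left out. Between knockout limb types the muscle covariate gave 0.25 for Ibsp, 0.08 for Alpl, 0.19 for Ostn, 0.04 for Panx3, 0.04 for Smpd3 and -0.06 for Mmp13. With 1 array left out, Mmp13 ran from -0.06 to 0.05 in hindlimbs, -0.01 to 0.11 for the difference, -0.07 to 0.03 between wild-type and -0.01 to 0.08 between knockout limb types, where Ibsp ran from -0.05 to 0.05 and Alpl from -0.09 to 0.03. Between knockout limb types, weights gave 0.02 for Ibsp and for Alpl, and male arrays 0.01 for Alpl and -0.07 for Mmp13.

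With a replicate block on the side and number in the labels, the member counts were 5, 6, 0, 0, 7 and 1, as without it. Same-numbered wild-type and knockout arrays of 1 limb type had correlations from -0.31 to 0.26, and 2 of 10 correlated best with their own number. Each had 5 arrays to match. Arrays of different genotypes cannot come from 1 embryo, so the pairing of limbs within an embryo was not tested. Forelimbs and hindlimbs of 1 genotype, side and number did not always share a sex, though some did. Y-linked means were 7.18 and 2.52 for wild-type right 2 (replicates 2 and 7), and 2.45 and 7.15 for knockout left 1 (replicates 4 and 9). The numbers therefore do not mark embryos throughout, and the block is not an embryo block. No member has a further probe set, so that alternative was not run. Median-centring or quantile scaling moved the median of all genes by at most 0.038.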
